A study of Mus musculus with 15 samples.

Results

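The genes described here are 41 mouse genes of DNA repair and of the checkpoints that hold the cell cycle when DNA is damaged or unreplicated. They were chosen by name, from their known roles, with earlier results of these data known. All 41 were found among the 55416 gene identifiers of the deposited table and passed the filter on low counts, which left 18244 genes. By role they comprise 11 genes of homologous recombination, 11 of the Fanconi anaemia pathway, 3 of mismatch repair and resection, 9 of the checkpoint, 4 of end joining and 3 of base excision repair. RNA was sequenced from neural precursor cells, a dividing population of the adult hippocampus with the capacity to form neurons and glia, which were grown as adherent cultures from female mice aged 6 weeks. The 3 stable lines compared were an Atf3 line, an Atf4 line and a control line, with 5 libraries each and 15 in all. Each carried a piggyBac insertion with a TRE3G promoter, a Tet-On 3G transactivator driven from SV40 and a puromycin resistance gene. The TRE3G promoter drove the coding sequence of Atf3 in the Atf3 line and that of Atf4 in the Atf4 line, and the control cassette held neither. All 3 lines, controls included, lost EGF and FGF from the medium and received doxycycline at 100 ng/ml at the same moment, and were harvested 10 h later. Each construct is represented by 1 line, so line and transgene cannot be told apart. The labels do not say that replicates were separate cultures, and p-values therefore measure the spread between these libraries, which may be technical.

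As background, cells meet double-strand breaks in 2 main ways. Homologous recombination copies the intact sister chromatid: Brca1, Bard1, Palb2 and Brca2 act at resected ends, and helpers such as Rad51ap1 and Rad54l promote strand exchange, so the route works mainly in S and G2 phase. Non-homologous end joining ligates ends directly through the Ku dimer (Xrcc5 and Xrcc6), the kinase Prkdc and the ligase Lig4, and operates throughout the cell cycle. The Fanconi anaemia pathway removes crosslinks between strands, and mismatch and base excision repair correct single bases. The kinases Atm and Atr sense damage and stalled forks and signal through Chek2 and Chek1. Many of these genes are known targets of E2F factors, which drive transcription at entry into S phase.

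Levels are given as CPM, counts per 1000000 of the TMM-scaled library total, with library values in order of replicate number. The labels give no meaning to this number. Log2 fold changes are from edgeR's quasi-likelihood test over all 15 libraries, with an approximate SE, and a gene is called at an adjusted p under 0.05. Libraries held between 53.7 M and 69.6 M gene counts. The lowest count of a member in any library was 120, for Palb2 in a control library. Atf3 mRNA, which checks the labels, was at 1942 ± 119.6 CPM in the Atf3 line, 1.40 ± 0.306 CPM in the Atf4 line and 5.02 ± 4.11 CPM in the control line (SD, n = 5 each). Atf4 mRNA was at 250.4 ± 16.5 CPM in the Atf3 line, 153 ± 21.7 CPM in the Atf4 line and 83.2 ± 6.75 CPM in the control line, so that the Atf4 cells held less of it than the Atf3 cells. Transcripts of a transgene and of the endogenous gene are counted together. Of 12 neural precursor markers 11 averaged above 1 CPM in every line, with Nes at 1018 ± 46.6 CPM in the Atf3 line, 834 ± 127 CPM in the Atf4 line and 662 ± 32.1 CPM in the control line and Sox2 at 224 ± 13.3 CPM in the Atf3 line, 233 ± 11.4 CPM in the Atf4 line and 228 ± 7.51 CPM in the control line, while Prom1 averaged under 0.1 CPM in each. Hes5, a Notch target of precursors, was at 1.04 ± 0.437 CPM in the Atf3 line, 3.32 ± 1.29 CPM in the Atf4 line and 11.2 ± 0.844 CPM in the control line. Microglial markers summed to 0.668 to 1.51 CPM over the 15 libraries and mural and fibroblast markers to under 1 CPM.

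Most repair genes were higher in both lines that carried a factor. In the Atf3 line 33 of the 41 members rose against control, 1 fell and 7 were not called, while 36.8% of all tested genes rose and 36.3% fell. In the Atf4 line 34 rose, 1 fell and 6 were not called, against 31.9% and 29.7% of all tested genes. The members' median log2 fold change was 0.68 in Atf3 cells and 0.79 in Atf4 cells, beside -0.02 and 0.00 over all tested genes. Every Atf3 library lay above every control library for 32 of the 41 members (78.05%), beside 32.0% of all tested genes. Every Atf4 library lay above every control library for 33 of the 41 members (80.5%), beside 26.1% of all tested genes. A rise of at least 2-fold was seen for 17 members in Atf3 cells and 15 in Atf4 cells, against 7.12% and 4.19% of all tested genes. Among tested genes with a mean of at least 10 CPM the share that rose was 51.8% in Atf3 cells and 43.98% in Atf4 cells, beside 28 and 29 of the 36 members at that level. Both comparisons use the same 5 control libraries, and the members were chosen with earlier results of these data known. Of all tested genes 6721 rose and 6630 fell in the Atf3 line with TMM scaling. With upper-quartile scaling 5395 rose and 8106 fell. The members then counted 32 that rose and 3 that fell. In bulk RNA, a larger share of cells in a given cycle phase and more RNA per cell cannot be told apart.

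**Figure D1:**
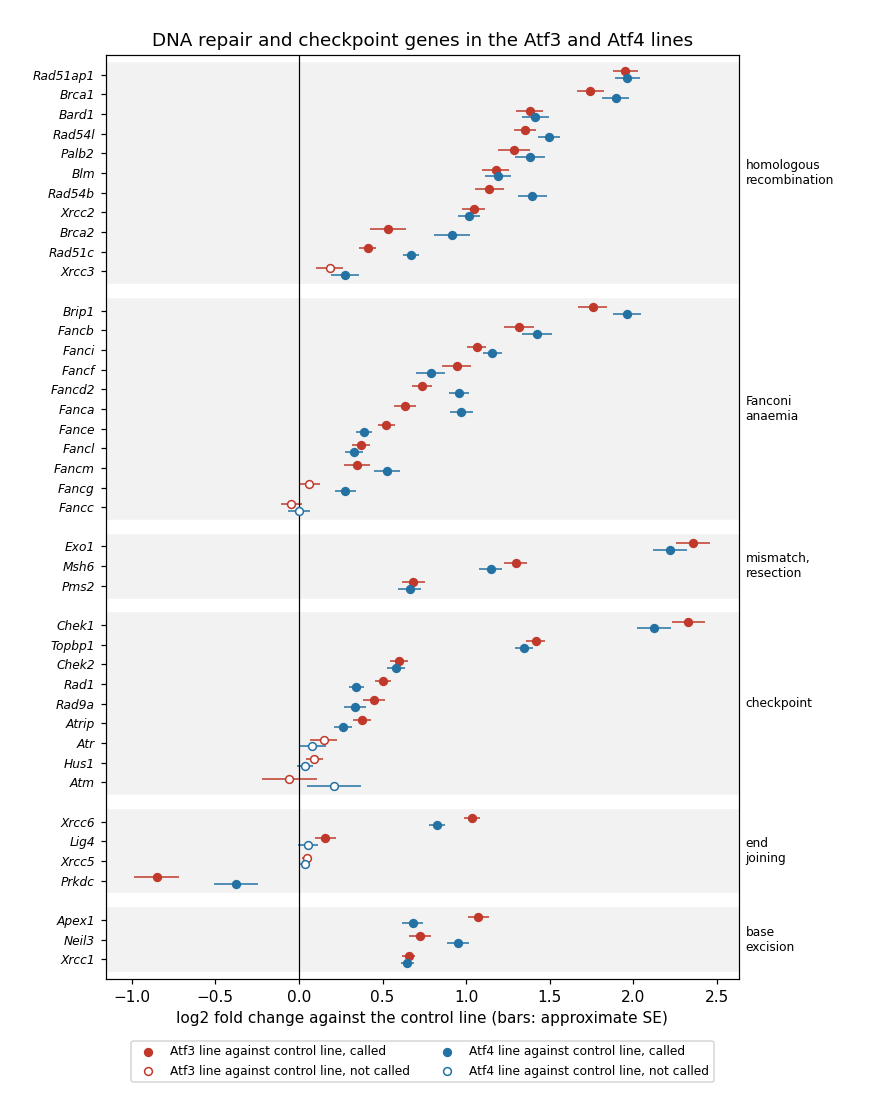
Log2 fold change of each of the 41 genes in the Atf3 line (red) and the Atf4 line (blue) against the control line, grouped by role; bars are approximate SE and open circles were not called. Exo1 and Chek1 lie above 2 in both lines, the end joining genes other than Xrcc6 lie near or below 0, and Prkdc is the only called member left of 0.

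Promoter sequence was available for 35 of the 41 members in RefSeq's GRCm38.p6 annotation, as 300 bases from 250 before to 50 after the start. The E2F site TTTNNCGC, searched on both strands, occurred in 9 of the 35 members (25.7%) and in 5.93% of all 27025 genes with a promoter. It was found for 8 of the 27 of these members that rose in both lines and for 1 of the 8 others, Fancg. The cyclic AMP response element TGACGTCA, a palindrome to which ATF factors are known to bind, occurred in 2 of 35 members (5.71%) and in 2.03% of all genes. The AP-1 site TGANTCA occurred in 0 of 35 members and in 8.97% of all genes, and the C/EBP-ATF core TGATGNAA in 1 of 35 members and in 4.51% of all genes. The CHR element TTTGAA occurred in 2 of 35 members and in 20.2% of all genes, and the CCAAT box CCAAT in 22 of 35 members (62.9%) and in 41.1% of all genes. No match says only that these letters are not in this window, and a match is not evidence of binding. The 5 promoters below hold either a cyclic AMP response element or at least 2 E2F matches. They are shown 5′ to 3′ along the gene's own strand, in lower case, with both kinds of match in capitals.

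Brca2 (chr5:150522371-150522670, plus strand): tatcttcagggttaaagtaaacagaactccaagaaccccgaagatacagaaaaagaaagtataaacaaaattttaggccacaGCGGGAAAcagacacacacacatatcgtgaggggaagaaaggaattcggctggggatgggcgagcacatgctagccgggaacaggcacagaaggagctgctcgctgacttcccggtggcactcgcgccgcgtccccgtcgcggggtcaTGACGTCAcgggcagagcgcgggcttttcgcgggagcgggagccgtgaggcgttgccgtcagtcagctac
Rad51c (chr11:87404457-87404756, minus strand): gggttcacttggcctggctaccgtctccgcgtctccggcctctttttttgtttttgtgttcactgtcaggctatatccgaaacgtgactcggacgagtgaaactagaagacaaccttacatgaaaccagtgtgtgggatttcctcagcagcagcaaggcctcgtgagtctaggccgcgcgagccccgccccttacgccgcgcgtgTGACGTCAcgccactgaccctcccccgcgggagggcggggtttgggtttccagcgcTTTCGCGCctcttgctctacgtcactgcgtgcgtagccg
Bard1 (chr1:71102923-71103222, minus strand): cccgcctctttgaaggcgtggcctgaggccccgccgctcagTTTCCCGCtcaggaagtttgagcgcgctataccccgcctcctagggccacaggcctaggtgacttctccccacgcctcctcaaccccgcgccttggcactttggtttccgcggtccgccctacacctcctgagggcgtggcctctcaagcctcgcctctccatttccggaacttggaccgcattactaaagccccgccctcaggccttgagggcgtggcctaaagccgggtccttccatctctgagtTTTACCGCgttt
Chek2 (chr5:110839733-110840032, plus strand): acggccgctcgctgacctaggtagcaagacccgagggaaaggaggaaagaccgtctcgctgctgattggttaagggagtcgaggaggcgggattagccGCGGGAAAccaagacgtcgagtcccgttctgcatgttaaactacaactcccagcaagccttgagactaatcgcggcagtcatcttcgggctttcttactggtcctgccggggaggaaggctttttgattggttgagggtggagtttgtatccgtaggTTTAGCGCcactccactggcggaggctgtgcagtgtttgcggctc
Xrcc6 (chr15:82016119-82016418, plus strand): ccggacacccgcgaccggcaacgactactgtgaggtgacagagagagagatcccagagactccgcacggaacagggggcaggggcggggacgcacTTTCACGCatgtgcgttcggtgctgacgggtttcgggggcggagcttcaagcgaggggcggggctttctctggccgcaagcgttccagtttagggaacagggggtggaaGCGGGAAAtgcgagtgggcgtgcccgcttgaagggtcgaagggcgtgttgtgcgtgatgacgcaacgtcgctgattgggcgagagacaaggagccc

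Counted from the start, with the base before it at -1, the response element began at -20 in Brca2 and at -45 in Rad51c. E2F matches began at -168 in Brca2 and at 12 in the Rad51c promoter shown. Those of Bard1 began at -209 and 39, those of Chek2 at -152 and 6, and those of Xrcc6 at -155 and -46. None of these E2F matches overlapped a response element. All 5 genes rose in both lines. Brca2 and Rad51c, the members with a response element, were also among the 9 that stood higher in Atf4 than in Atf3 cells. Fanca, Fancg, Brip1 and Neil3, also among the 9, had no response element in this window. Rad54b, Fancd2 and Prkdc, the others, had no promoter sequence available. Any link between the element and the difference between lines was not tested.

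Of the homologous recombination genes 10 of 11 rose in the Atf3 line and all 11 in the Atf4 line, at median log2 fold changes of 1.18 and 1.38. Their highest fold change was that of Rad51ap1, whose product stimulates strand pairing. Rad51ap1 was at 28.6, 26.2, 28.9, 26.3 and 29.1 CPM in Atf3 libraries, 25.1, 27.97, 26.8, 28.4 and 32.1 CPM in Atf4 libraries and 6.51, 6.75, 8.18, 7.94 and 6.59 CPM in control libraries. All 10 libraries with a factor lay above all control libraries, and the log2 fold change was 1.95 ± 0.07 SE, adjusted p = 1.1e-13 in the Atf3 line and 1.96 ± 0.07 SE, adjusted p = 3.1e-13 in the Atf4 line. Brca1 (ENSMUSG00000017146; GRCm38 chromosome 11, 101488764 to 101551955, minus strand), the ubiquitin ligase that promotes resection and recruits Palb2, was at 33.99, 33.8, 35.5, 30.9 and 36.5 CPM in Atf3 libraries, 33.5, 35.7, 36.6, 42.5 and 41.5 CPM in Atf4 libraries and 9.06, 9.15, 10.3, 12.3 and 10.1 CPM in control libraries. It rose 3.35-fold in the Atf3 line (1.74 ± 0.08 SE, adjusted p = 1.3e-12) and 3.72-fold in the Atf4 line (1.90 ± 0.08 SE, adjusted p = 1.5e-12). Its partner Bard1 was at 31.2, 29.5, 30.6, 28.6 and 30.97 CPM in Atf3 libraries, 27.3, 29.4, 28.5, 35 and 34.4 CPM in Atf4 libraries and 10.4, 10.1, 11.9, 13.8 and 11.6 CPM in control libraries. Bard1 rose by a log2 fold change of 1.38 in the Atf3 line (adjusted p = 2.4e-11) and 1.42 in the Atf4 line (adjusted p = 5.0e-11), again with no overlap between either line and the controls. Rad54l, a motor protein of strand exchange, was at 25.95, 25.6, 27.9, 24.4 and 27.3 CPM in Atf3 libraries, 26.97, 28.1, 27.8, 30.7 and 31.5 CPM in Atf4 libraries and 9.25, 9.31, 11.1, 11.7 and 10.04 CPM in control libraries, with a log2 fold change of 1.35 in the Atf3 line (adjusted p = 2.4e-12) and 1.50 in the Atf4 line (adjusted p = 1.9e-12).

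Brca1, Bard1, Palb2 and Brca2, which act as a chain at the break, all rose in both lines, with a median log2 fold change of 1.33 in Atf3 cells and 1.40 in Atf4 cells. Palb2, the bridge between Brca1 and Brca2, rose by 1.29 and 1.38 in the Atf3 and Atf4 lines, and the helicase Blm by 1.18 and 1.19. The Rad54 homologue Rad54b rose by 1.14 and 1.40, and the recombination genes Xrcc2 and Rad51c rose by 1.05 and 0.41 in the Atf3 line and by 1.02 and 0.67 in the Atf4 line. Xrcc3, which also acts in recombination, was at 11.7, 11.1, 11.9, 12.2 and 11.7 CPM in Atf3 libraries, 11.1, 10.9, 12.4, 13.3 and 14.8 CPM in Atf4 libraries and 9.06, 11.1, 10.3, 11.6 and 9.55 CPM in control libraries. It was called in the Atf4 line (0.28 ± 0.08 SE, adjusted p = 0.00682) and not in the Atf3 line (0.18 ± 0.08 SE, adjusted p = 0.0514), its libraries overlapped in both comparisons, and the difference between Atf4 and Atf3 lines was not called (0.09 ± 0.08 SE, adjusted p = 0.384). In the Atf3 line Xrcc3 passed the threshold in 6 of 25 alternatives. They were the 2 lines fitted alone (adjusted p = 0.0211), no filter on low counts (0.02185) and replicate number as a block (0.0432). The others left out Atf3 replicate 2 (0.0438), control replicate 4 (0.0353) or Atf4 replicate 5 (0.0410).

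**Figure D2:**
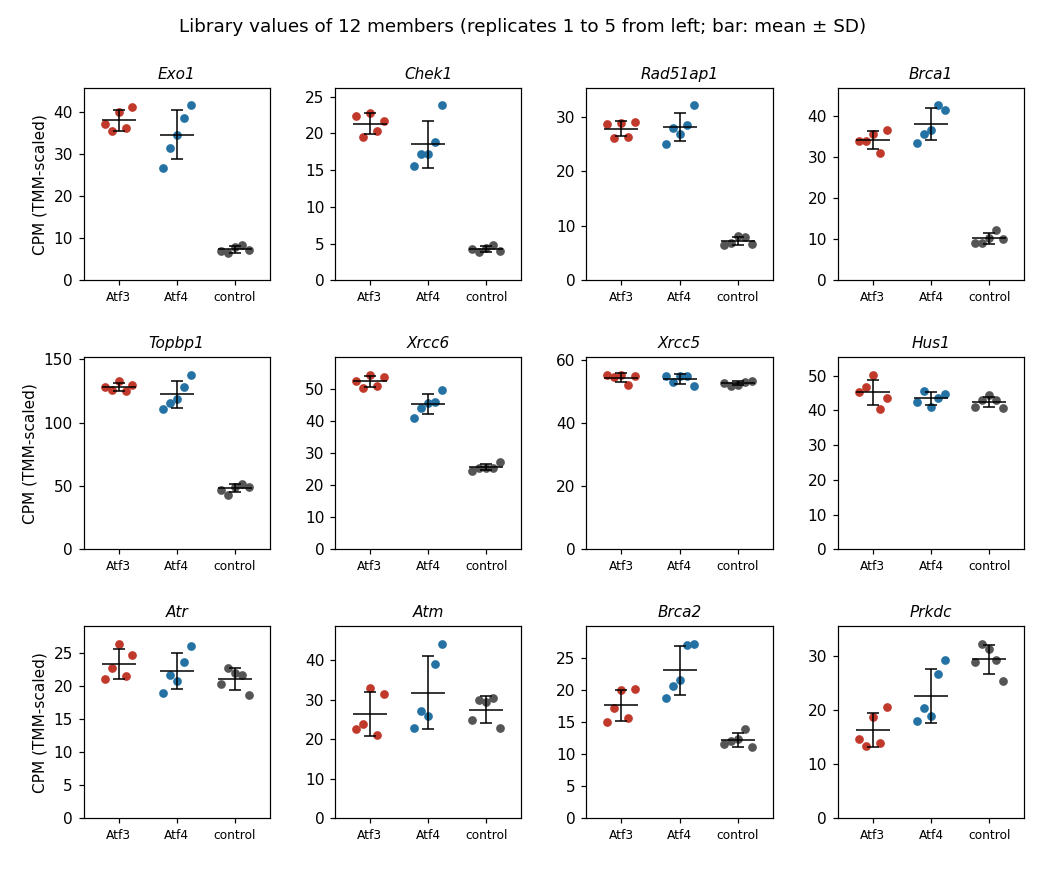
CPM of 12 of the genes in each library of the Atf3, Atf4 and control lines (points, replicates 1 to 5 from the left), with the mean and SD of each line; every axis starts at 0. In Exo1, Chek1, Rad51ap1, Brca1, Topbp1 and Xrcc6 both lines lie clear of the control, and in Xrcc5 and Hus1 the libraries of all lines overlap. Replicates 4 and 5 are the highest Atf4 libraries in every gene shown except Xrcc5 and Hus1.

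In the Fanconi anaemia pathway 9 of 11 genes rose in the Atf3 line and 10 of 11 in the Atf4 line, with medians of 0.63 and 0.79. Brip1, the helicase also known as Fancj, changed most. It was at 13.04, 14.2, 14.2, 14.1 and 12.5 CPM in Atf3 libraries, 13.8, 15.04, 14, 18.7 and 17.2 CPM in Atf4 libraries and 3.84, 3.64, 4.27, 4.17 and 4.18 CPM in control libraries, so that all libraries with a factor were over 2-fold above all control libraries. Its log2 fold change was 1.76 ± 0.08 SE, adjusted p = 1.8e-12 in the Atf3 line and 1.97 ± 0.08 SE, adjusted p = 1.4e-12 in the Atf4 line. Fancb, a subunit of the core complex that ubiquitinates Fancd2 and Fanci, was at 6.77, 6.32, 6.93, 5.83 and 6.15 CPM in Atf3 libraries, 6.33, 6.86, 6.62, 6.93 and 7.76 CPM in Atf4 libraries and 2.46, 2.31, 2.57, 3.21 and 2.27 CPM in control libraries. It rose by 1.32 ± 0.09 SE, adjusted p = 2.8e-10 in the Atf3 line and by 1.43 ± 0.09 SE, adjusted p = 2.3e-10 in the Atf4 line, without overlap. Fanci, which with Fancd2 is the substrate clamped onto DNA at a crosslink, was at 39.4, 39.5, 40.8, 38.2 and 39.9 CPM in Atf3 libraries, 39.9, 42.4, 39.7, 44.8 and 44.5 CPM in Atf4 libraries and 18.3, 15.97, 19.6, 20.1 and 20.5 CPM in control libraries. It rose 2.09-fold in the Atf3 line (1.06 ± 0.06 SE, adjusted p = 9.4e-12) and 2.23-fold in the Atf4 line (1.16 ± 0.06 SE, adjusted p = 8.9e-12). Fancd2 rose by 0.73 in Atf3 cells and 0.96 in Atf4 cells.

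Of the 8 measured subunits of the core complex 6 rose in Atf3 cells and 7 in Atf4 cells. Beside Fancb, the subunits that rose in both lines had log2 fold changes of 0.94 and 0.79 for the adaptor Fancf, 0.63 and 0.97 for Fanca, 0.52 and 0.39 for Fance, 0.37 and 0.33 for the ubiquitin ligase Fancl, and 0.35 and 0.53 for the translocase Fancm, in the Atf3 and Atf4 lines. Fancg was at 13.1, 14.03, 12.8, 14.9 and 12.6 CPM in Atf3 libraries, 16.7, 16.5, 15.3, 14.8 and 14.8 CPM in Atf4 libraries and 13.3, 13.6, 11.02, 13.7 and 12.98 CPM in control libraries. All Atf4 libraries lay above all controls and Fancg was called there (0.28 ± 0.06 SE, adjusted p = 9.6e-04), while the Atf3 libraries overlapped the controls (0.06 ± 0.06 SE, adjusted p = 0.389). It also stood higher in Atf4 than in Atf3 cells by the direct test (0.21 ± 0.06 SE, adjusted p = 0.0110). Fancc was at 13.98, 11.4, 11.2, 11.7 and 12.6 CPM in Atf3 libraries, 12.8, 13.2, 12.9, 11.5 and 12.4 CPM in Atf4 libraries and 13.5, 11.5, 12.7, 12.7 and 12.4 CPM in control libraries, with overlap in every comparison. Its log2 difference from control was -0.05 ± 0.06 SE, adjusted p = 0.530 in the Atf3 line and 0.00 ± 0.06 SE, adjusted p = 0.993 in the Atf4 line.

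All 3 genes of mismatch repair and resection rose in both lines. Exo1 (ENSMUSG00000039748; GRCm38 chromosome 1, 175880581 to 175913489, plus strand), the exonuclease that degrades the mismatched strand and also resects double-strand breaks, had the highest fold change of all 41 genes in both lines. Exo1 was at 37.1, 35.7, 40.2, 36.3 and 41.2 CPM in Atf3 libraries, 26.9, 31.5, 34.6, 38.8 and 41.7 CPM in Atf4 libraries and 6.94, 6.46, 7.999, 8.49 and 7.17 CPM in control libraries. Its level was 5.14-fold higher in the Atf3 line (2.36 ± 0.10 SE, adjusted p = 5.0e-13) and 4.67-fold higher in the Atf4 line (2.22 ± 0.10 SE, adjusted p = 2.9e-12). Msh6, which recognises mismatches, was at 76.9, 74.1, 82.9, 74.9 and 79.8 CPM in Atf3 libraries, 58.97, 63.9, 69.5, 76.4 and 82.1 CPM in Atf4 libraries and 31.97, 32.9, 30.8, 31.5 and 31.2 CPM in control libraries. It rose by 1.30 ± 0.07 SE, adjusted p = 5.7e-12 in the Atf3 line and by 1.15 ± 0.07 SE, adjusted p = 7.6e-11 in the Atf4 line, and the Atf4 libraries were spread more widely than those of the other lines. Pms2, an endonuclease of mismatch repair, was at 15.2, 15.1, 15.2, 14.7 and 16.1 CPM in Atf3 libraries, 13.8, 13.6, 14.7, 16.5 and 16.6 CPM in Atf4 libraries and 9.96, 9.88, 9.30, 10.2 and 8.20 CPM in control libraries, which is a rise of 0.68 ± 0.07 SE, adjusted p = 3.3e-08 in the Atf3 line and 0.66 ± 0.07 SE, adjusted p = 1.0e-07 in the Atf4 line.

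Of the 9 checkpoint genes 6 rose in each line and 3 were not called, with medians of 0.45 in Atf3 cells and 0.34 in Atf4 cells. Chek1 (ENSMUSG00000032113; GRCm38 chromosome 9, 36708482 to 36727065, minus strand), the effector kinase that delays entry into mitosis when replication is incomplete, was at 22.3, 19.6, 22.8, 20.3 and 21.7 CPM in Atf3 libraries, 15.5, 17.2, 17.2, 18.9 and 23.8 CPM in Atf4 libraries and 4.23, 3.85, 4.34, 4.81 and 3.95 CPM in control libraries. Its level was 5.03-fold higher in the Atf3 line (2.33 ± 0.10 SE, adjusted p = 4.0e-13) and 4.36-fold higher in the Atf4 line (2.13 ± 0.10 SE, adjusted p = 3.7e-12). Topbp1, which activates Atr at stalled forks, was at 128, 126, 133, 125 and 129.8 CPM in Atf3 libraries, 111, 116, 119, 128 and 138 CPM in Atf4 libraries and 47.1, 43.2, 49.3, 51.4 and 49.5 CPM in control libraries. Its rise was 1.42 ± 0.06 SE, adjusted p = 1.5e-13 in the Atf3 line and 1.35 ± 0.06 SE, adjusted p = 8.1e-13 in the Atf4 line. Chek2, the effector kinase downstream of Atm, was at 17.4, 19.02, 17.8, 18.6 and 19 CPM in Atf3 libraries, 18.1, 17.1, 19.4, 17.8 and 18.4 CPM in Atf4 libraries and 11.7, 11.1, 11.8, 13.3 and 12.7 CPM in control libraries and rose by 0.60 ± 0.05 SE, adjusted p = 6.6e-09 in the Atf3 line and 0.58 ± 0.05 SE, adjusted p = 2.1e-08 in the Atf4 line.

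Of the 6 members that sense damage upstream of these kinases, 3 rose in both lines and Atm, Atr and Hus1 were not called in either. Atm, the kinase activated by double-strand breaks, was at 22.6, 23.7, 32.9, 21.01 and 31.5 CPM in Atf3 libraries, 22.9, 27.1, 25.8, 38.9 and 44.1 CPM in Atf4 libraries and 24.7, 29.8, 29.5, 30.5 and 22.7 CPM in control libraries. Its libraries overlapped widely, and its log2 difference from control was -0.06 ± 0.16 SE, adjusted p = 0.764 in the Atf3 line and 0.21 ± 0.16 SE, adjusted p = 0.277 in the Atf4 line. Atr, the kinase of stalled forks, was at 20.99, 22.7, 26.4, 21.5 and 24.7 CPM in Atf3 libraries, 18.97, 21.7, 20.8, 23.6 and 26 CPM in Atf4 libraries and 20.3, 22.6, 21.96, 21.6 and 18.6 CPM in control libraries. It did not pass the test in the Atf3 line (0.15 ± 0.08 SE, adjusted p = 0.107) or the Atf4 line (0.08 ± 0.08 SE, adjusted p = 0.404), while its partner Atrip rose by 0.38 in the Atf3 line (adjusted p = 6.6e-06) and 0.26 in the Atf4 line (adjusted p = 4.6e-04). Atr was called higher in the Atf3 line with no filter on low counts (0.18, adjusted p = 0.0407) and with the trend across exon length removed (0.40, adjusted p = 8.7e-07). In the ring-shaped clamp that marks damaged sites, Rad9a and Rad1 rose and Hus1 was not called. Rad1 rose by 0.50 and 0.34 and Rad9a by 0.45 and 0.34 in the Atf3 and Atf4 lines. Hus1 was at 45.3, 46.6, 50.3, 40.5 and 43.5 CPM in Atf3 libraries, 42.4, 45.7, 40.95, 43.5 and 44.7 CPM in Atf4 libraries and 41.1, 42.8, 44.3, 43.1 and 40.7 CPM in control libraries. These values overlap, with a log2 difference of 0.09 ± 0.05 SE, adjusted p = 0.101 in the Atf3 line and 0.04 ± 0.05 SE, adjusted p = 0.558 in the Atf4 line. Without Atf3 replicate 4 Hus1 was called higher in the Atf3 line (adjusted p = 0.0141).

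Of the end joining genes, 2 of 4 rose in the Atf3 line and 1 fell, while 1 rose and 1 fell in the Atf4 line, with medians of 0.10 and 0.05. The Ku subunits, which form 1 dimer, gave different calls. Xrcc6 (Ku70) was at 52.5, 50.2, 54.5, 50.95 and 53.6 CPM in Atf3 libraries, 40.9, 44.1, 45.8, 46.1 and 49.7 CPM in Atf4 libraries and 24.4, 25.5, 25.5, 25.3 and 27.1 CPM in control libraries. It rose 2.05-fold in the Atf3 line (1.03 ± 0.05 SE, adjusted p = 9.1e-13) and 1.77-fold in the Atf4 line (0.82 ± 0.05 SE, adjusted p = 4.8e-11), with no overlap with the controls. Xrcc5 (Ku80) was at 55.2, 54.4, 55.3, 51.97 and 54.95 CPM in Atf3 libraries, 54.95, 53.1, 54.9, 54.8 and 51.7 CPM in Atf4 libraries and 52.6, 51.8, 52.1, 52.9 and 53.4 CPM in control libraries. It was not called in the Atf3 line (0.05 ± 0.03 SE, adjusted p = 0.162) or in the Atf4 line (0.04 ± 0.03 SE, adjusted p = 0.330). With upper-quartile scaling, which lowers the median of all genes in the Atf3 line by 0.12, its log2 fold change there was -0.07 and was called lower (adjusted p = 0.0415).

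Prkdc (ENSMUSG00000022672; GRCm38 chromosome 16, 15637866 to 15842235, plus strand), the catalytic subunit of the DNA-dependent kinase that the Ku dimer recruits, was the only member called lower. Prkdc was at 14.7, 13.5, 18.7, 14 and 20.6 CPM in Atf3 libraries, 18.04, 20.4, 19.02, 26.7 and 29.3 CPM in Atf4 libraries and 28.9, 32.3, 31.3, 29.3 and 25.4 CPM in control libraries. All Atf3 libraries lay below all control libraries, while the Atf4 libraries with the highest values, replicates 4 and 5, reached the control range. Its log2 fold change was -0.85 ± 0.13 SE, adjusted p = 1.4e-05 in the Atf3 line and -0.38 ± 0.13 SE, adjusted p = 0.0184 in the Atf4 line, and Prkdc stood higher in Atf4 than in Atf3 cells (0.47 ± 0.13 SE, adjusted p = 0.00803). With the trend across exon length removed, an alternative added after seeing the data, the value was -0.65 in the Atf3 line (adjusted p = 1.6e-05) and -0.23 in the Atf4 line, where the call was lost (adjusted p = 0.0544). Lig4, the ligase of end joining, was at 18.7, 18.2, 16.2, 15.6 and 17.2 CPM in Atf3 libraries, 16.3, 15.5, 14.99, 16.3 and 16.9 CPM in Atf4 libraries and 14.3, 14.1, 15.2, 16.6 and 16.8 CPM in control libraries. It was called in the Atf3 line (0.16 ± 0.06 SE, adjusted p = 0.0270) and not in the Atf4 line (0.05 ± 0.06 SE, adjusted p = 0.453), its libraries overlapped in both, and the direct test between the lines was not passed (-0.10 ± 0.06 SE, adjusted p = 0.183). The call in the Atf3 line was lost in 10 of 25 alternatives, among them leaving out any of control replicates 1, 2 and 3, Atf3 replicates 1 and 2 or Atf4 replicates 2 and 4, with adjusted p from 0.0539 to 0.574.

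All 3 base excision repair genes rose in both lines, with medians of 0.73 in Atf3 cells and 0.68 in Atf4 cells. Apex1, the endonuclease that cuts at sites without a base, was at 31.6, 29.1, 33.4, 30.8 and 30.2 CPM in Atf3 libraries, 21.1, 23.4, 23.8, 22.3 and 27.4 CPM in Atf4 libraries and 14.6, 13.4, 14.9, 14.7 and 15.99 CPM in control libraries. The libraries formed 3 separate levels, with a rise of 1.07 ± 0.06 SE, adjusted p = 2.7e-11 in the Atf3 line and 0.68 ± 0.06 SE, adjusted p = 3.3e-08 in the Atf4 line. The glycosylase Neil3 was at 23.6, 24.1, 24.6, 22.3 and 26.8 CPM in Atf3 libraries, 26.4, 28.8, 28.1, 28.6 and 30.03 CPM in Atf4 libraries and 14.9, 13.5, 13.8, 17.4 and 13.8 CPM in control libraries, a rise of 0.73 ± 0.07 SE, adjusted p = 9.2e-09 in the Atf3 line and 0.95 ± 0.07 SE, adjusted p = 5.1e-10 in the Atf4 line. Xrcc1, the scaffold for ligation of single-strand breaks, was at 58.4, 57.7, 59.1, 65.2 and 60.6 CPM in Atf3 libraries, 60.4, 58.4, 62.3, 57.8 and 60.5 CPM in Atf4 libraries and 36.96, 36.9, 37.6, 40.6 and 38.9 CPM in control libraries. It rose by 0.66 ± 0.04 SE, adjusted p = 4.1e-11 in the Atf3 line and 0.65 ± 0.04 SE, adjusted p = 1.2e-10 in the Atf4 line, and the difference between Atf4 and Atf3 lines was -0.01 ± 0.04 SE, adjusted p = 0.899.

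Compared directly, most of these genes were not called between the Atf4 and Atf3 lines. In the Atf4 line 9 members exceeded their level in the Atf3 line, 4 were lower and 28 were not called, beside 19.7% higher and 23.9% lower of all tested genes. The median log2 difference was 0.01, and for 34 of 41 members it was under 0.25 in size. No member differed by 2-fold. Of all tested genes 3595 were higher and 4363 lower in the Atf4 line with TMM scaling. With upper-quartile scaling 5089 were higher and 3017 lower. Of the members 13 were then higher and 2 lower. Every Atf4 library lay above every Atf3 library for 2 of the 41 members (4.88%), Rad51c and Fanca, beside 9.52% of all tested genes. Every Atf4 library lay below every Atf3 library for 4 of the 41 members, Atrip, Rad1, Xrcc6 and Apex1, beside 16.3% of all tested genes. Of these Atrip did not pass the test (-0.11 ± 0.06 SE, adjusted p = 0.104).

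The 9 higher in the Atf4 line were Brca2, Rad51c, Rad54b, Fanca, Fancd2, Fancg, Brip1, Neil3 and Prkdc. They included 3 of the 11 homologous recombination genes and 4 of the 11 Fanconi genes, beside 19.7% of all tested genes. Brca2 was at 18.8, 20.6, 21.6, 27.1 and 27.2 CPM in the Atf4 libraries, 15.02, 17.2, 20.02, 15.7 and 20.2 CPM in the Atf3 libraries and 11.7, 12.1, 12.3, 13.9 and 11.1 CPM in the control libraries. Its log2 difference between Atf4 and Atf3 lines was 0.39 ± 0.10 SE, adjusted p = 0.00614, and replicate 1 was the only Atf4 library within the Atf3 range. Fanca was at 37.9, 35.5, 35.2, 45.7 and 42.7 CPM in the Atf4 libraries and 31.6, 30.7, 32.1, 29.8 and 31.4 CPM in the Atf3 libraries (0.34 ± 0.07 SE, adjusted p = 4.3e-04). Rad51c was at 15.4, 16.9, 17.1, 17.5 and 15.9 CPM in the Atf4 libraries and 13.9, 13.4, 13.4, 14.3 and 14.1 CPM in the Atf3 libraries (0.26 ± 0.05 SE, adjusted p = 3.4e-04). The differences of Rad54b, Neil3, Fancd2 and Brip1 were 0.26, 0.23, 0.22 and 0.21. Brip1 lost its call without Atf3 replicate 1 or 5 or without Atf4 replicate 4 or 5, with adjusted p from 0.07001 to 0.111.

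The 4 genes lower in the Atf4 line were Apex1 (-0.39 ± 0.06 SE, adjusted p = 6.1e-05), Xrcc6 (-0.21 ± 0.05 SE, adjusted p = 0.00126), Rad1 (-0.16 ± 0.05 SE, adjusted p = 0.00864) and Fance (-0.14 ± 0.05 SE, adjusted p = 0.0318). Under upper-quartile scaling only Apex1 and Xrcc6 remained called, and Fance lost its call in 12 of 25 alternatives, with adjusted p from 0.0506 to 0.233. Chek1 differed by -0.21 ± 0.09 SE, adjusted p = 0.0681 and Msh6 by -0.15 ± 0.07 SE, adjusted p = 0.0767, and neither was called. Without Atf4 replicate 5, which was the highest Atf4 library for 27 of 41 members, both were called lower in the Atf4 line, with adjusted p of 8.5e-04 for Chek1 and 0.00589 for Msh6. Both were also called lower with no filter on low counts, with adjusted p of 0.0419 for Chek1 and 0.04996 for Msh6. Chek1 was called lower by limma-voom too (-0.23, adjusted p = 0.0347), and Msh6 without Atf4 replicate 4 (adjusted p = 0.0483). For 3 of the genes with the highest rises the test did not tell the lines apart: Exo1 differed by -0.14 ± 0.09 SE, adjusted p = 0.244, Rad51ap1 by 0.01 ± 0.07 SE, adjusted p = 0.902 and Brca1 by 0.15 ± 0.08 SE, adjusted p = 0.117. Brca1 was called higher in the Atf4 line under upper-quartile scaling (0.21, adjusted p = 0.0258) and without Atf4 replicate 1 (0.20, adjusted p = 0.0482).

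**Figure D3:**
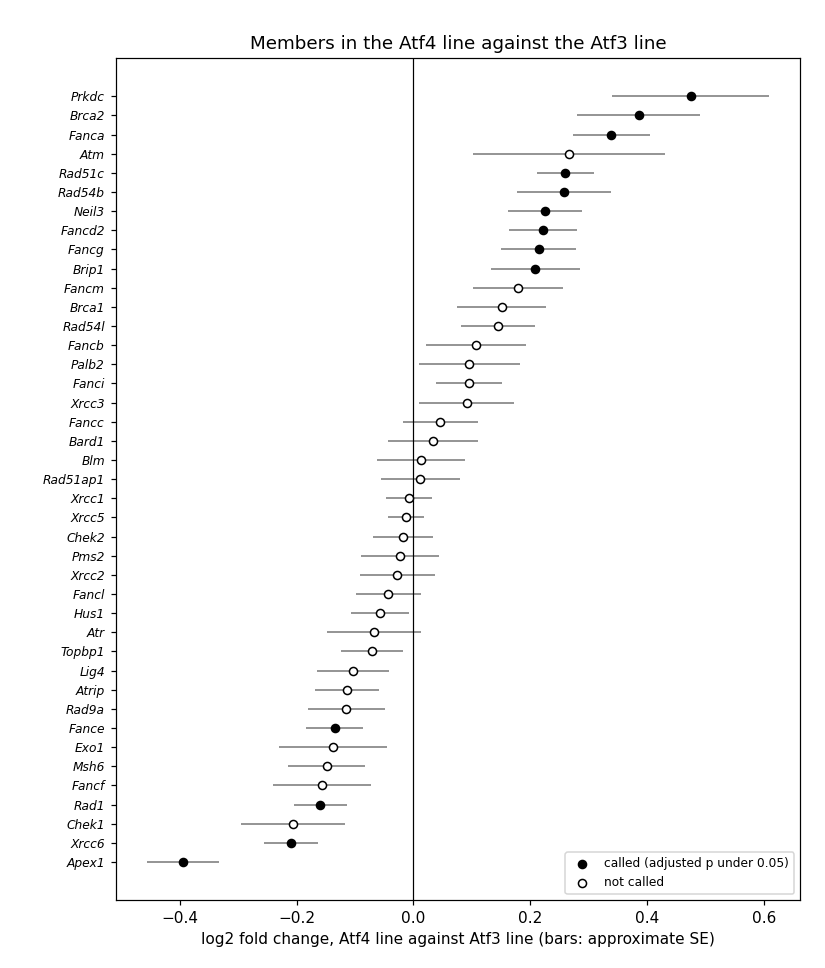
Log2 fold change of the Atf4 line against the Atf3 line for the 41 genes, with approximate SE; filled points were called. The called values run from -0.39 for Apex1 to 0.47 for Prkdc, and 28 genes were not called.

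Per length, the members' levels spanned a wide range, and their order differed between lines. On the scale of CPM per kilobase of exon, Xrcc5 was highest in the control line, with 21.3, 21.1 and 20.6 in the Atf3, Atf4 and control lines. Apex1 was next there, with 21.8, 16.6 and 10.4, and was the highest member in the Atf3 line. Palb2 was lowest in every line, with 0.832, 0.891 and 0.340. Among the 41 members Exo1 ranked 14 in the Atf3 line, 19 in the Atf4 line and 37 in the control line, and Chek1 ranked 13, 20 and 34 in the same lines. Prkdc ranked 39, 37 and 21. Levels per length rest on the union of annotated exons, so a gene with a long unused exon reads low.

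Reads of genes that overlap on opposite strands cannot be separated, since the library kit does not mark strand. For Rad54b and Atrip the overlapping gene lies on the same strand, where strand would not separate the shared reads. Of the 41 members 9 share at least 10% of their exon bases with another annotated gene, and how the counting split such reads is not given in the sources used here. Apex1 shares the most, 61.7% with Pip4p1 on the other strand. The Pip4p1 count itself was 42.9 ± 2.25 CPM in the Atf3 line, 43.1 ± 1.88 CPM in the Atf4 line and 41.4 ± 1.22 CPM in the control line, and was not called in either comparison with control. Rad54b shares 35.8% with Fsbp on the same strand, which stood at 2.33 ± 0.405 CPM in the Atf3 line, 2.42 ± 0.201 CPM in the Atf4 line and 2.10 ± 0.106 CPM in the control line and was not called. The other 7 were Fancc, Atrip, Fanci, Rad54l, Fancf, Fancl and Fanca, at 10.5 to 16.4% of exon bases. Of their partners Polg, beside Fanci, rose by 0.30 in the Atf3 line (adjusted p = 2.9e-06), Lrrc41, beside Rad54l, rose by 0.16 in the Atf3 line (adjusted p = 0.00672), Trex1, beside Atrip, was listed at 0 in every library, and Zfp276, beside Fanca, fell by 0.41 in Atf3 cells and by 0.38 in Atf4 cells. The values of these 9 members are uncertain to that degree.

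Libraries of a line differed in their overall level of these genes. Over the 41 genes the summed level was 1093 to 1178 CPM in the Atf3 line, 1045 to 1262 CPM in the Atf4 line and 649 to 707 CPM in the control line. Atf4 replicate 5 was the highest Atf4 library for 27 members and Atf4 replicate 1 the lowest for 25, and control replicate 4 was the highest control library for 23. In the Atf4 line the summed level was 1045, 1097, 1111, 1205 and 1262 CPM in replicates 1 to 5. Atf4 mRNA rose in the same order, at 128, 147, 150, 154 and 188 CPM. In the Atf3 line replicate 3 had the highest summed level, 1178 CPM, and the lowest Atf3 mRNA, 1772 CPM. Any link between these values was not tested. Without control replicates 4 and 5, left out together after seeing the data, 33 members rose and 1 fell in the Atf3 line, 34 rose and 1 fell in the Atf4 line, and 9 stood higher and 4 lower in Atf4 than in Atf3 cells. The coefficient of variation over 5 libraries had a median of 5.75% in the Atf3 line, 8.89% in the Atf4 line and 8.02% in the control line. It was highest for Atm, at 20.7% in Atf3 cells and 29.0% in Atf4 cells.

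The libraries in which Atm, Prkdc and Brca2 were high within the Atf3 and Atf4 lines were the same, Atf3 replicates 3 and 5 and Atf4 replicates 4 and 5. In their lines these libraries also had the highest summed level of all 41 members, at 1178 and 1167 CPM in the Atf3 libraries and 1205 and 1262 CPM in the Atf4 libraries. The summed S phase list was highest in the same Atf4 libraries, at 1636 and 1677 CPM, while in the Atf3 line its highest value was that of replicate 1, at 1640 CPM. Msh6, Chek1 and Xrcc6, with 4346 to 4635 exon bases, were also highest in Atf4 replicates 4 and 5. Rad51c, with 4384 exon bases, was not, at 15.4, 16.9, 17.1, 17.5 and 15.9 CPM in the Atf4 libraries. Fancg, with 3795 exon bases, was lowest in Atf4 replicates 4 and 5, and Xrcc5, with 2555, was lowest in Atf4 replicate 5. In all 4 of these libraries the 1434 tested genes with at least 10000 exon bases also lay above their line mean, by a median log2 deviation of 0.057 and 0.057 in the Atf3 libraries and 0.063 and 0.085 in the Atf4 libraries. In the other Atf3 libraries their median deviation was -0.072 to -0.00047 and in the other Atf4 libraries -0.053 to -0.043. The median log2 fold change of these long genes was -0.19 in Atf3 cells and -0.14 in Atf4 cells, and that of the 4679 tested genes with under 2000 exon bases was -0.10 and 0.01. With the trend across exon length removed, Atr was also called higher in the Atf4 line, by 0.26 (adjusted p = 1.8e-04). The part of this trend, of the summed level and of cell cycle phase in the values of Atm, Atr, Brca2 and Prkdc was not tested further.

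**Figure D4:**
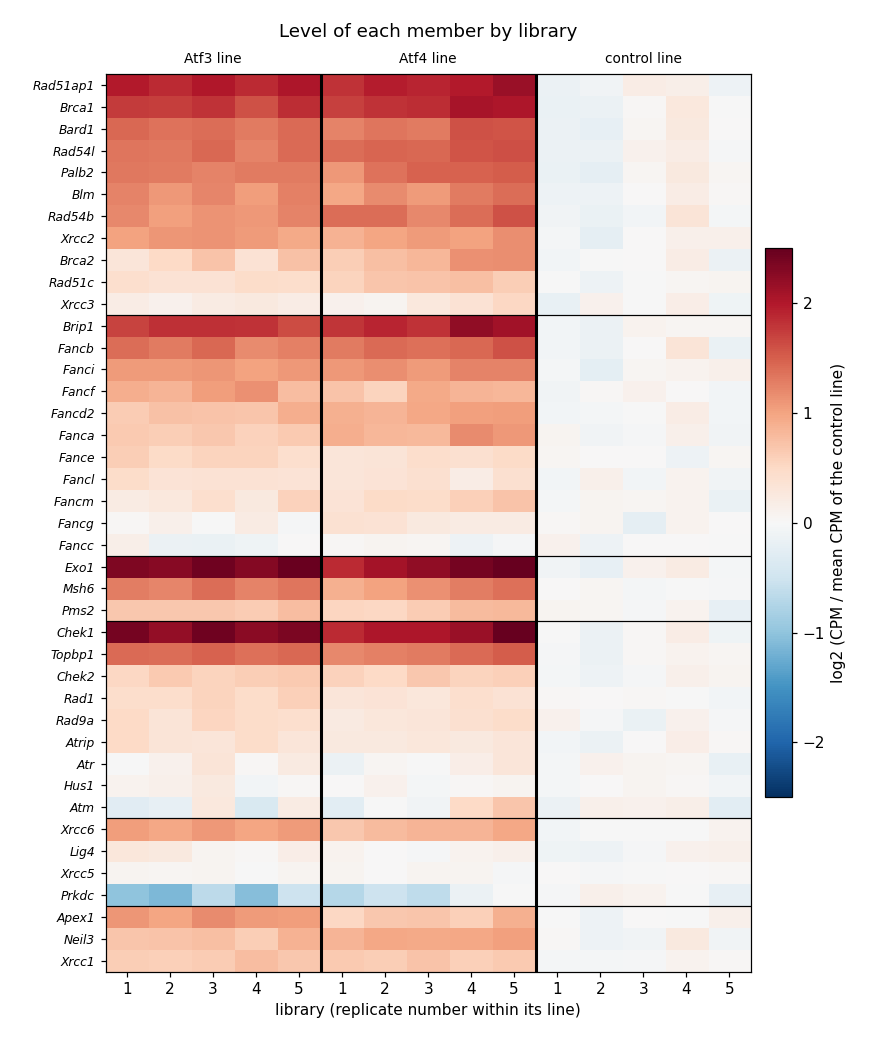
Log2 CPM of the 41 genes in 15 libraries, each gene relative to its mean over the control libraries, with genes in rows by role and libraries in columns (Atf3, Atf4, control). Most rows are raised across both lines with a factor, with the strongest values in Exo1 and Chek1, while Prkdc is lowered and Xrcc5, Hus1 and Fancc stay near 0.

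Other genes of the same pathways were listed by role. For these and the lists that follow, the shares over all tested genes were 36.8% risen and 36.3% fallen in the Atf3 line. In the Atf4 line they were 31.9% and 29.7%. Of 22 other homologous recombination genes 19 rose in Atf3 cells and 20 in Atf4 cells, with medians of 0.57 and 0.54 on the log2 scale. Rpa2, which coats resected single strands, rose by 1.65 and 1.63 in the Atf3 and Atf4 lines, while the nuclease subunit Mus81 fell slightly in the Atf4 line (-0.16 ± 0.06 SE, adjusted p = 0.0186). Of 16 other checkpoint genes 13 rose in Atf3 cells and 14 in Atf4 cells, and the others were not called. Among them, the fork protection partners Timeless and Tipin rose by 1.94 and 1.48 in the Atf3 line and by 1.93 and 1.38 in the Atf4 line. Of 8 other end joining genes 2 rose and 3 fell in each line, with medians of -0.02 and -0.01, near those of all tested genes. The nuclease Dclre1c (Artemis), which Prkdc activates, was at 12.4 ± 1.29 CPM in the Atf3 line, 17.3 ± 2.48 CPM in the Atf4 line and 26.98 ± 3.17 CPM in the control line, with log2 fold changes of -1.12 ± 0.10 SE, adjusted p = 6.3e-09 in the Atf3 line and -0.64 ± 0.10 SE, adjusted p = 1.2e-05 in the Atf4 line. The polymerase Polm fell by 0.71 and 0.28 and the ligation factor Nhej1 by 0.27 and 0.19 in the Atf3 and Atf4 lines. The 2 that rose were Parp1 and Polq, which act in the alternative end joining route.

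Of 8 other Fanconi genes 5 rose in each line, with the deubiquitinase Usp1 at 1.38 and 1.19 in the Atf3 and Atf4 lines, and the nuclease Fan1 fell in the Atf3 line (-0.34 ± 0.07 SE, adjusted p = 1.3e-04). Of 6 other mismatch repair genes 4 rose and 1 fell in each line: the sliding clamp Pcna rose by 1.57 and 1.51, and Mlh3 fell by 1.07 and 0.72. Of 13 other base excision repair genes tested 10 rose and 2 fell in the Atf3 line and 7 rose and 2 fell in the Atf4 line. Lig1, the ligase that seals the repaired strand, rose by 1.67 in the Atf3 line (adjusted p = 6.2e-14) and 1.73 in the Atf4 line (adjusted p = 1.3e-13). Ung, the glycosylase that removes uracil from DNA, was at 25.2 ± 1.92 CPM in the Atf3 line, 18.5 ± 3.99 CPM in the Atf4 line and 2.02 ± 0.276 CPM in the control line, which is 12.5-fold in the Atf3 line (3.64 ± 0.14 SE, adjusted p = 1.1e-13) and 9.13-fold in the Atf4 line (3.19 ± 0.14 SE, adjusted p = 1.5e-12). The gap-filling polymerase Polb fell by 0.52 and 0.40, and the glycosylase Neil1 by 0.62 and 0.60. Over all 95 other repair and checkpoint genes tested, 62 rose and 14 fell in the Atf3 line and 59 rose and 14 fell in the Atf4 line, with medians of 0.40 and 0.24.

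All 16 listed S phase genes, such as the Mcm helicase subunits, rose in both lines, with medians of 1.72 in Atf3 cells and 1.68 in Atf4 cells, and their summed level was 1491 to 1640 CPM in the Atf3 line, 1415 to 1677 CPM in the Atf4 line and 515 to 611 CPM in the control line. Of 16 genes of G2 and mitosis 12 rose and 4 fell in the Atf3 line, and 12 rose and 4 were not called in the Atf4 line, with medians of 0.52 and 0.59. E2f1, the S phase transcription factor, was at 36.8 ± 2.59 CPM in the Atf3 line, 35.6 ± 1.84 CPM in the Atf4 line and 9.40 ± 0.994 CPM in the control line, and of 13 E2F and retinoblastoma family genes 10 rose in each line. The inhibitory family member Rbl2 fell by 0.58 and 0.46 in the Atf3 and Atf4 lines. Of 13 targets of p53, the damage-activated transcription factor, 8 rose and 5 fell in the Atf3 line and 8 rose and 4 fell in the Atf4 line: the cell cycle inhibitor Cdkn1a rose by 0.98 and 0.98, and Btg2 fell by 1.61 and 1.28. The part of cell cycle phase in the repair genes' rise was not tested.

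Cell type markers also differed between the lines. The neural precursor list summed to 4666 to 4841 CPM in the Atf3 line, 4335 to 4554 CPM in the Atf4 line and 3692 to 4005 CPM in the control line. Of its 11 tested markers 4 rose and 3 fell in the Atf3 line, and 6 rose and 3 fell in the Atf4 line. The 7 oligodendrocyte lineage markers summed to 2922 to 3734, 3476 to 4049 and 3847 to 4419 CPM in the Atf3, Atf4 and control lines, and all 7 fell in Atf3 cells and 6 in Atf4 cells. The astrocyte markers summed to 102 to 114, 97.1 to 134 and 223 to 261 CPM in the same lines, with 3 of 4 tested lower in the Atf3 line and 4 of 4 in the Atf4 line. The 6 neuronal markers summed to 1339 to 1566, 1362 to 1517 and 1644 to 1825 CPM, with 1 higher and 3 lower in the Atf3 line and 2 higher and 3 lower in the Atf4 line. The endothelial markers summed to 12.4 to 18.5, 18.4 to 21.5 and 44.9 to 49.1 CPM, and the ependymal markers to 31.7 to 41.7, 30.8 to 40.3 and 23.5 to 27.8 CPM. Most of these sums came from Kdr and from Foxj1. Of 3 endothelial markers tested 1 rose and 2 fell in the Atf3 line, and 1 rose and 1 fell in the Atf4 line. Of 3 ependymal markers tested 2 rose and 1 fell in the Atf3 line, and 1 rose and 1 fell in the Atf4 line. Of these lists 2 of 5 astrocyte, 3 of 5 endothelial and 3 of 5 ependymal markers averaged under 1 CPM in every line, among them Gja1, Cldn5 and Pifo. Others were present and differed from control: Gfap was at 56.4 ± 2.65 CPM in the Atf3 line, 67.9 ± 7.13 CPM in the Atf4 line and 134 ± 9.66 CPM in the control line, and S100b fell by 1.22 and 1.26 on the log2 scale in the Atf3 and Atf4 lines. The endothelial receptor Kdr was at 10.1 ± 1.29 CPM in the Atf3 line, 16.4 ± 1.60 CPM in the Atf4 line and 44.3 ± 1.74 CPM in the control line, and the ependymal factor Foxj1 at 34.98 ± 3.73 CPM in the Atf3 line, 34.1 ± 3.56 CPM in the Atf4 line and 22.7 ± 1.57 CPM in the control line. The part of these differences in the results was not tested.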

How the data were processed

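Per the labels, RNA of 3 stable lines gave 15 libraries, the NEBNext Ultra kit used leaves strand unmarked, and sequencing was paired-end on an Illumina NovaSeq. The table deposited by the authors gives raw gene counts, unnormalized whole numbers, for 55416 Ensembl identifiers. Per the submitters' processing notes, the tools were STAR and edgeR and the build mm10; their versions, the counting program, its strand setting and the annotation are not given in the sources used. Symbols and coordinates were read from GENCODE M21 (GRCm38, which is mm10) and promoters from RefSeq.

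The count model was edgeR 4.0.16 in R 4.3.3: TMM scaling, filterByExpr, 1 fit of 15 libraries with a coefficient per line, the quasi-likelihood test and Benjamini-Hochberg adjustment over 18244 genes. SE is the size of the log2 fold change divided by the square root of F. The fit was tested on simulated counts with known changes. Pairs of libraries within a line had a chi-square per degree of freedom between 5.47 and 53.4, so each was counted as 1 sample. Same-numbered libraries correlated at -0.08 to 0.10 over 15 pairs of deviations from line means, none over 0.1, so replicate numbers were not taken as pairs.

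The members and all gene lists were chosen with earlier results of these data known. Library values are given for up to 3 called members per role and comparison with the largest fold change, for members that fell and for those not called in either line; those of Xrcc3, Fancg, Brca2, Fanca and Rad51c were added after their values were seen. Of other lists, the genes named are among the 2 rising and 2 falling with the smallest adjusted p in either line, apart from Nhej1 and the cell type markers; some genes of these lists are not reported here. Alternatives were DESeq2 1.42.0, limma-voom (limma 3.58.1), RLE and upper-quartile scaling, other filters, pairs of lines fitted alone, a replicate block and leaving out each library. Removal of the exon-length trend and leaving out control replicates 4 and 5 together were chosen after seeing the data.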

Additional observations from a re-analysis of the deposited data

Results flagged for a closer look

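Over 123 sets of 5 libraries (41 genes in 3 lines), 6 had a library that stood apart from the other 4 by more than Dixon's critical value of 0.71, and chance gives about 1 such set in 20. Of these, 3 concerned control replicate 4. There Rad54b was at 6.28 CPM, above the next control library at 4.88 CPM, Fancd2 at 20.8 CPM, above 18.3 CPM, and Fance at 18.6 CPM, below 20.5 CPM. Fancg was at 11.02 CPM in control replicate 3, below the next control library at 12.98 CPM. Fancl was at 14.5 CPM in Atf3 replicate 1, above the next Atf3 library at 13.5 CPM, and Xrcc5 was at 51.97 CPM in Atf3 replicate 4, below the next at 54.4 CPM. Control replicate 4 also held the highest Atf3 mRNA of its line, at 11 CPM.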

How the results depend on the processing

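Under 25 alternatives the count of members higher stayed at 32 to 35 in the Atf3 line and 34 to 35 in the Atf4 line against control, and between the Atf4 and Atf3 lines 8 to 13 were higher and 2 to 6 lower. Upper-quartile scaling gave 3 members lower in the Atf3 line (Prkdc, Fancc and Xrcc5, whose log2 fold change turned to -0.072) and 2 lower in the Atf4 line against the Atf3 line. It shifted the median of all genes in the Atf3 line by -0.12 and the share of higher among all called genes to 39.96% against 50.3% in the Atf3 line, to 43.98% against 51.8% in the Atf4 line, and to 62.8% against 45.2% between the Atf4 and Atf3 lines; the cause was not tested. With the exon-length trend removed 0 members were lower in the Atf4 line by edgeR, 1 (Prkdc) at an unadjusted p under 0.05, and 1 by DESeq2 without this correction. Calls of 35, 39 and 31 of 41 members were the same in every alternative in the 3 comparisons.

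With the replicate number as a block, 34 members rose and 1 fell with Atf3, 34 rose and 1 fell with Atf4, and 9 stood higher and 3 lower in Atf4 than in Atf3 cells: Xrcc3 was called in the Atf3 line (adjusted p = 0.0432) and Fance lost its call between lines (adjusted p = 0.0559). A library had its highest correlation with its own number in 5 of 30 library-by-line sets. No member had under 120 counts in a library.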

Other observations

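Of the other repair routes, nucleotide excision repair, which removes bulky lesions such as those of ultraviolet light, had genes called in both directions. Of its 13 genes 5 rose and 3 fell in Atf3 cells, against 36.8% risen and 36.3% fallen among all tested genes. For Atf4 cells the counts were 4 and 3, against 31.9% and 29.7%. The list's risen shares, 38.5% and 30.8%, were thus close to those of all tested genes. The damage verification factor Xpa was at 10.2 ± 0.689 CPM in the Atf3 line, 11.7 ± 1.41 CPM in the Atf4 line and 19.9 ± 0.766 CPM in the control line, with log2 fold changes of -0.97 ± 0.07 SE, adjusted p = 4.9e-10 in the Atf3 line and -0.76 ± 0.07 SE, adjusted p = 2.7e-08 in the Atf4 line. Rad23b, which stabilises the damage sensor Xpc, rose by 0.64 and 0.48 in the Atf3 and Atf4 lines.

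Translesion synthesis copies damaged templates. Of its 9 genes 4 rose and 4 fell in the Atf3 line and 3 rose and 4 fell in the Atf4 line. Beside them, 36.8% of all tested genes rose and 36.3% fell in the Atf3 line, and 31.9% rose and 29.7% fell in the Atf4 line. The list's medians were -0.03 and -0.04. Rad18, the ligase that marks the sliding clamp at stalled forks, was at 21.4 ± 1.59 CPM in the Atf3 line, 20.3 ± 2.12 CPM in the Atf4 line and 9.33 ± 0.849 CPM in the control line and rose by 1.20 ± 0.08 SE, adjusted p = 8.4e-11 in the Atf3 line and 1.12 ± 0.08 SE, adjusted p = 5.3e-10 in the Atf4 line. Mad2l2, a subunit of polymerase zeta and of the shieldin complex that limits resection, was at 46.3 ± 6.37 CPM in the Atf3 line, 63.6 ± 13.2 CPM in the Atf4 line and 146 ± 3.05 CPM in the control line. It fell, with log2 fold changes of -1.66 ± 0.11 SE, adjusted p = 2.1e-10 in the Atf3 line and -1.20 ± 0.11 SE, adjusted p = 3.2e-08 in the Atf4 line. The catalytic subunit of the same polymerase, Rev3l, fell by 0.68 and 0.66 in the Atf3 and Atf4 lines.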
